A study of Danio rerio with 12 samples.

Results

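The genes described here encode proteins of the complement system and the inhibitor of its first enzyme, measured in zebrafish embryos kept in morphine and in untreated embryos. They were found on the array by symbol. Of 10 symbols proposed (c9, c6, c7b, c8a, c8b, c8g, c3a.1, cfb, cfi and serping1), 8 genes with 11 probe sets were found through the array annotation, out of 15502 probe sets tested. A probe set is a group of short probes designed against 1 transcript sequence and summarised as 1 value. c9 had 3 probe sets, c3a.1 had 2 and each of the others had 1. The array annotation names the C6 gene c6.2, which lists c6 among its older names. No probe set carried the symbol c8a, which was not analysed here. The probe set called cfb by the study's own gene list has no gene name in the array annotation, so it is described apart and is not counted among the 11.

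Complement is a cascade of blood proteins, most of them made by the liver, that marks microbes and damaged cells. Its classical, lectin and alternative pathways meet at C3, which is cut to C3b and attaches to surfaces. From C5 onwards, the terminal proteins C6, C7 and C8 join one after the other, and C9 then polymerises into a ring that opens the target membrane, the membrane attack complex. Factor I and C1 inhibitor, the product of serping1, hold the cascade in check. At the stage studied here the zebrafish liver is still a bud, and the yolk syncytial layer also transcribes genes of plasma proteins.

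The embryos were wild type, of the AB strain. In the morphine group they were kept in 10 nM morphine in E3 medium from 5 hours post fertilisation (hpf) until collection at 24 hpf, and in the control group they were left untreated. Each group had 6 pools of about 100 whole embryos, and total RNA of each pool was hybridised to 1 Affymetrix Zebrafish Genome Array. Values are the deposited log2 signals, so that a difference of 1 is a doubling, and since probes bind with different strength, the order of signals between probe sets serves only to call a probe set bright or dim and is not read as an order of transcript levels. Each value comes from a pool of whole embryos, and the sources do not say whether the pools came from separate clutches.

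The morphine and control signals of every probe set were compared in limma, a linear model that shares information on variance between probe sets. A probe set passed at an adjusted p under 0.10, with Benjamini-Hochberg adjustment over all 15502. The genes were selected on their measured log2 fold changes between morphine and control in these same arrays, so these changes are given as a description and support nothing by themselves. Of the 11 probe sets, 3 were lower with morphine, 1 was higher and 7 did not pass. The 3 lower ones all belong to c9 and the higher one to serping1. Over all probe sets 3.72% passed as lower, 3.13% as higher and 6.85% in either direction. The median log2 fold change of the 11, of which 3 are c9, was -0.11, with 8 below 0. Among these 8, c3a.1 Dr.6845.1.S1_at (-0.004) and cfi (-0.01) lay close to 0. Over all 15502 probe sets the median was 0.01, with 7167 below 0. In whole-embryo RNA, fewer cells of a type and less RNA per cell cannot be told apart.

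c9 encodes the protein that forms the ring of the membrane attack complex. Its probe set Dr.2452.1.A1_at read 8.20, 8.15, 8.05, 8.07, 8.31 and 7.99 in morphine pools 1 to 6, against 8.45, 8.45, 8.48, 8.45, 8.35 and 8.41 in control pools 1 to 6. Every morphine pool was below every control pool, with a gap of 0.03 between morphine pool 5 and control pool 5. The mean was 8.13 ± 0.12 with morphine and 8.43 ± 0.05 in control (SD, n = 6 each), a log2 fold change of -0.30 ± 0.06 (SE) with a 95% interval of -0.42 to -0.18. On the linear scale the signal was 18.7% lower.

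The second c9 probe set, Dr.2452.2.A1_a_at, read 7.90, 7.76, 7.80, 7.83, 7.95 and 7.97 with morphine, against 8.18, 8.33, 8.06, 8.14, 8.11 and 8.15 in control. The groups did not overlap, with a gap of 0.09. Its log2 fold change was -0.29 ± 0.06 (SE; 95% interval -0.41 to -0.17), and it missed the threshold without pools 1 and 2 of both groups (-0.23, limma adjusted p = 0.103), the arrays set apart by c3a.1 below. The third, Dr.2452.2.A1_x_at, read 7.41, 7.02, 7.19, 7.12, 7.19 and 7.17 with morphine, against 7.63, 7.68, 7.55, 7.59, 7.53 and 7.58 in control. Here too the groups lay apart, by 0.12, and morphine pool 1 was the nearest to control. Its log2 fold change was the most negative of the 11, -0.41 ± 0.06 (SE; 95% interval -0.54 to -0.29), a signal 24.9% lower. The 3 were measured in the same pools. The _a and _x probe sets share the name stem Dr.2452.2 of the array design, and the _x suffix marks probes that can bind other transcripts. These 2 are thus not independent readings of c9. After each group's mean was removed, these 2 had a Pearson r of 0.54 over the 12 arrays (permutation p = 0.0618, adjusted over the 4 pairs of probe sets of 1 gene to 0.247; Spearman rho 0.64, permutation p = 0.042, adjusted 0.168; r = 0.61 without the 2 arrays farthest from the median). Neither r nor rho passed after adjustment. Dr.2452.1.A1_at, with the same leading number but the stem Dr.2452.1, had an r of 0.14 with the _a probe set and 0.27 with the _x probe set (permutation p = 0.68 and 0.557).

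serping1 encodes C1 inhibitor, a serpin that blocks C1r, C1s and the lectin pathway proteases, and plasma kallikrein of the contact system as well. Its probe set Dr.5467.1.A1_at read 5.48, 5.64, 5.43, 5.80, 5.53 and 5.48 in the morphine pools, against 5.06, 5.24, 4.77, 4.76, 4.63 and 4.82 in the control pools. All 6 morphine pools were above all 6 control pools, with a gap of 0.19 between morphine pool 3 and control pool 2. The means were 5.56 ± 0.14 with morphine and 4.88 ± 0.23 in control (SD, n = 6 each). The log2 fold change was 0.68 ± 0.10 (SE; 95% interval 0.48 to 0.88), a 1.60-fold higher signal. In 4 of the 6 control pools the signal was under 5, in the dim range of the array, where a fold change is less certain. Of the 4 that passed, serping1 and the _x probe set of c9 also exceeded a change of 1.3-fold. The share of all probe sets that did both was not counted, and the genes were chosen on these changes. The 4 that passed were also the 4 whose groups did not overlap, against 3.61% of all probe sets (1.9% with morphine below control and 1.7% with morphine above it).

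**Figure D1:**
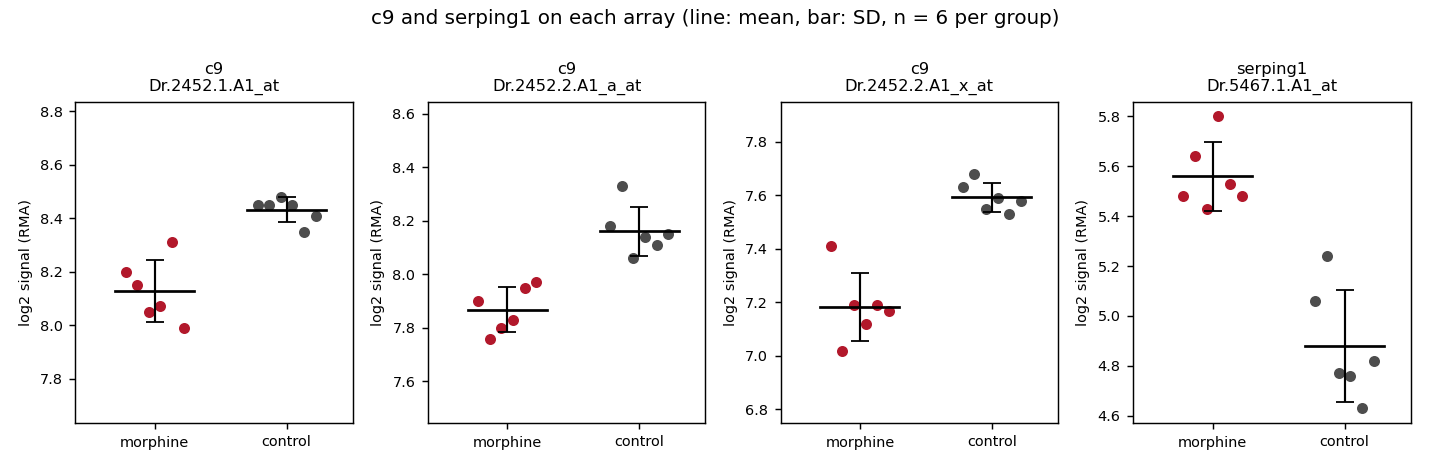
Log2 signal of the 3 c9 probe sets and of serping1 in each pool, with the 6 morphine pools left of the 6 control pools, a panel per probe set with its own vertical axis, and bars for the mean and SD of each group. All morphine points lie below the control points in the c9 panels (gaps 0.03, 0.09 and 0.12) and above them for serping1 (gap 0.19).

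The other terminal genes on the array did not pass. c8g encodes the gamma chain of C8, a lipocalin. It read 5.58, 5.28, 5.70, 5.57, 5.50 and 5.49 with morphine, against 5.65, 5.60, 5.98, 5.68, 5.58 and 5.90 in control. In 4 of 6 morphine pools it was below the lowest control pool, and the other 2 lay within the control range. Its log2 fold change was -0.21 ± 0.08 (SE; 95% interval -0.39 to -0.04), which missed the threshold in the main fit (limma adjusted p = 0.185). A limma fit blocked by replicate let it pass (adjusted p = 0.0571), as did SAM, a permutation method (q = 0.0926). Both called more of all probe sets, 1547 with the block and 1685 with SAM, against 1062 in the main fit. c8g passed in 0 of the 12 fits that left out 1 array.

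c8b encodes the beta chain of C8, through which the complex of C5b, C6 and C7 takes up C8. It read 8.31, 8.21, 8.45, 8.22, 8.36 and 8.34 with morphine, against 8.32, 8.34, 8.34, 8.29, 8.31 and 8.27 in control. The morphine pools lay on both sides of the control pools, and the log2 fold change was 0.0025 with a 95% interval of -0.10 to 0.11. c8b and c8a are neighbours on chromosome 2 of the reference annotation.

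c6.2 and c7b encode the proteins that join C5b first, and they are neighbours on chromosome 21 with overlapping annotated spans. c6.2 read 6.28, 6.29, 6.34, 6.38, 6.34 and 6.48 with morphine, against 6.31, 6.47, 6.47, 6.57, 6.36 and 6.56 in control. Its groups overlapped and 2 morphine pools were below the lowest control pool (log2 fold change -0.11 ± 0.06, SE; 95% interval -0.23 to 0.02). c7b read 5.84, 5.89, 5.87, 6.19, 5.87 and 5.93 with morphine, against 5.88, 6.13, 5.75, 5.82, 5.78 and 5.83 in control. A single pool of each group stood above the rest, morphine pool 4 and control pool 2, and the log2 fold change was 0.07 ± 0.07 (SE; 95% interval -0.09 to 0.23).

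c3a.1 encodes a form of C3, and it had a probe set that varied more between pools than nearly all others on the array. Dr.7722.1.A1_at read 5.32, 4.87, 6.04, 5.81, 5.93 and 5.60 with morphine, against 5.16, 5.15, 6.33, 6.23, 5.98 and 6.20 in control. Pools 1 and 2 of both groups were low, at 4.87 to 5.32, and pools 3 to 6 of both groups were high, at 5.60 to 6.33. Its SD within groups was 0.49, at the 99.6 percentile of all probe sets, whose median SD was 0.12. The log2 fold change was -0.24 ± 0.23 (SE), and its 95% interval of -0.74 to 0.25 was the widest of the 11.

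The same 4 arrays had the lowest differences between the 3′ and 5′ actin control probe sets, a sign of RNA quality that grows as transcripts are shortened from the 5′ end. That difference was 3.51 to 4.12 on these arrays and 4.21 to 5.32 on the other 8. The same difference for the GAPDH control probe sets overlapped, at 1.04 to 1.5 on these arrays and 1.43 to 1.9 on the other 8. The paper used only RNA above a set integrity threshold. After the group means were removed, c3a.1 and the actin difference had a Pearson r of 0.73 over the 12 arrays (permutation p = 0.0122, adjusted over 11 relations to 0.134) and a Spearman rho of 0.61 (permutation p = 0.0439, adjusted 0.241). Without the 2 arrays farthest from the median, r was 0.67. The relation did not pass after adjustment, and its part in the spread of c3a.1 was not tested. With the actin difference as a covariate, the log2 fold change of c3a.1 was -0.34 and did not pass (limma adjusted p = 0.256). Without all 4 low arrays, pools 1 and 2 of both groups, it was also -0.34 and passed (limma adjusted p = 0.0954). These are the arrays on which this probe set itself read lowest, and leaving them out was chosen after seeing the data. The pass is therefore only described and supports nothing.

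**Figure D2:**
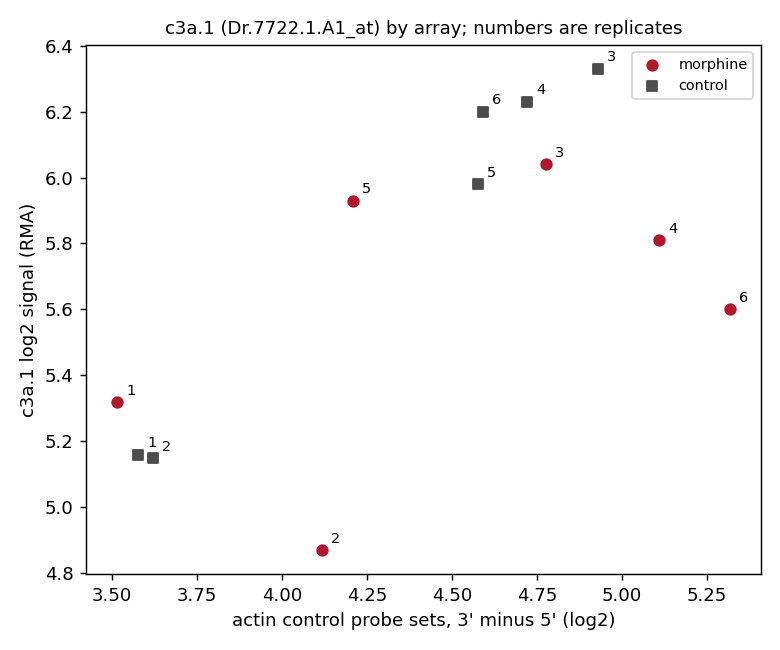
Log2 signal of c3a.1 (Dr.7722.1.A1_at) on each of the 12 arrays against the 3′ minus 5′ difference of the actin control probe sets on the log2 scale, with morphine as circles and control as squares, numbered by replicate. Replicates 1 and 2 of both groups form the lower left of the plot, at c3a.1 signals of 4.87 to 5.32 and actin differences of 3.51 to 4.12.

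The other c3a.1 probe set, Dr.6845.1.S1_at, was dim. It read 3.86, 3.94, 4.12, 3.86, 3.98 and 3.95 with morphine, against 3.93, 3.86, 3.77, 3.89, 4.21 and 4.06 in control, a log2 fold change of -0.004 with a 95% interval of -0.16 to 0.15. It lay at the 18.5 percentile of mean signal and did not show the split of pools 1 and 2 from pools 3 to 6. The deviations of the c3a.1 probe sets from their group means had a Pearson r of 0.22 (permutation p = 0.547).

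A further probe set stands for cfb only in the study's gene list. Factor B is the protease of the alternative pathway's C3 convertase. The signal was 6.96, 6.79, 6.73, 6.60, 6.78 and 6.74 with morphine, against 6.94, 7.01, 6.96, 6.86, 7.01 and 7.03 in control. Of the morphine pools, 5 of 6 were below the lowest control pool and pool 1 lay inside the control range. The log2 fold change was -0.20 ± 0.06 (SE; 95% interval -0.33 to -0.08) and passed (limma adjusted p = 0.0679), but it passed in only 3 of the 12 fits that left out 1 array.

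cfi encodes factor I, the protease that inactivates C3b and C4b. Its probe set Dr.1730.1.A1_at read 9.51, 9.37, 9.66, 9.66, 9.50 and 9.51 with morphine, against 9.49, 9.66, 9.49, 9.50, 9.61 and 9.52 in control. The groups overlapped over nearly their whole range, and the log2 fold change was -0.01 with a 95% interval of -0.14 to 0.11.

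**Figure D3:**
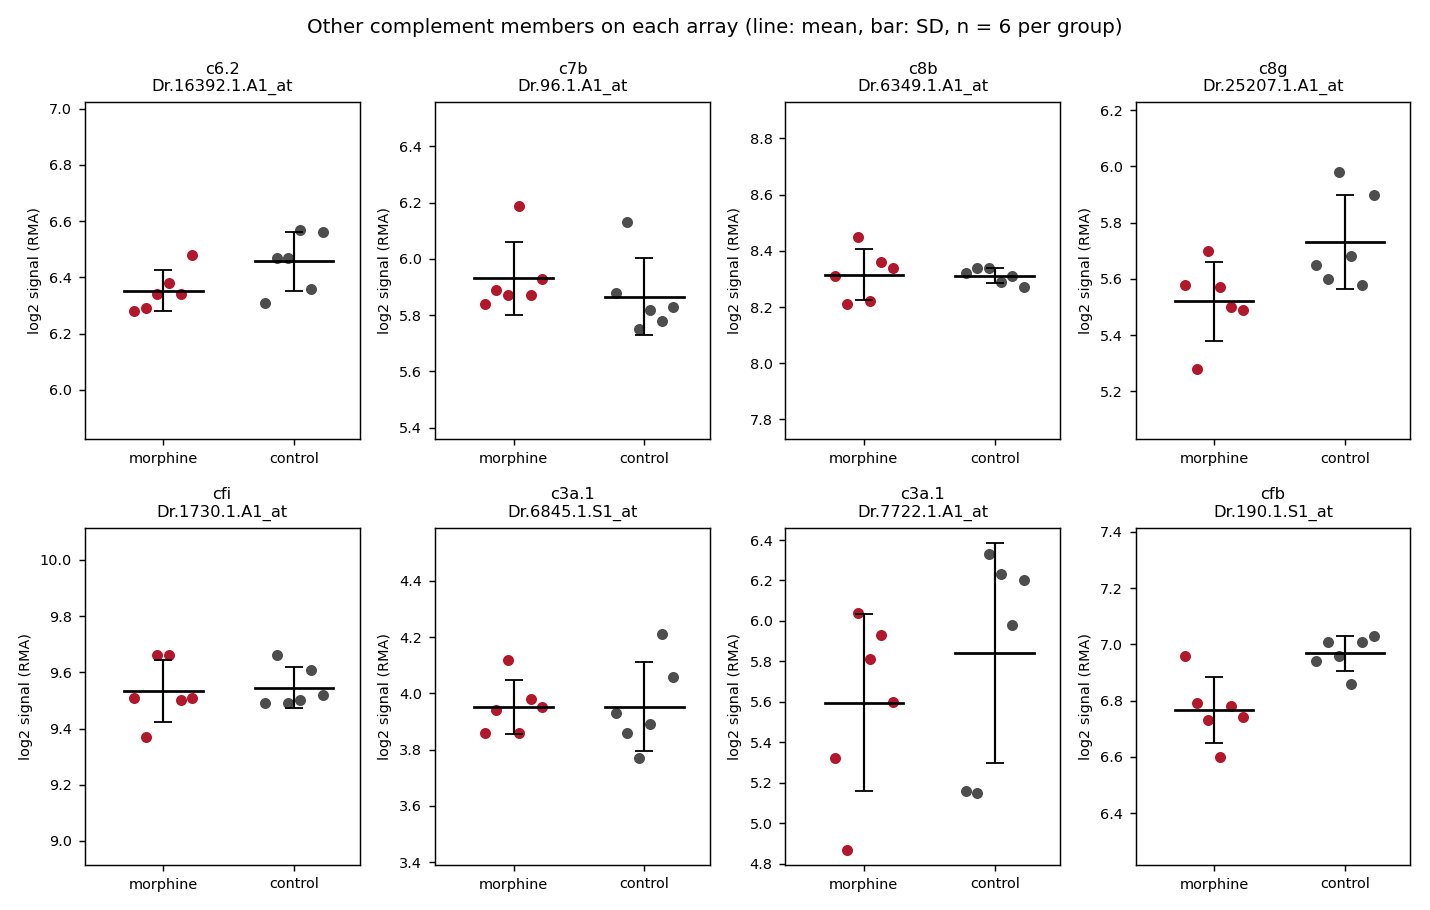
Log2 signal of c6.2, c7b, c8b, c8g, cfi, both c3a.1 probe sets and the probe set listed as cfb in each pool, with morphine left of control, a vertical axis per panel, and bars for the mean and SD of each group. The groups overlap in every panel, and c3a.1 Dr.7722.1.A1_at shows 2 low pools in each group (4.87 and 5.32 with morphine, 5.15 and 5.16 in control).

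Whether the signals moved together from pool to pool was read from the deviations from the group means, which do not use the contrast between groups. The brightest c9 probe set had a Pearson r of -0.41 to 0.15 with the 7 other genes over the 12 arrays, and the smallest permutation p adjusted over these 7 relations was 0.976 (0.6 for Spearman's rho). No shared variation with this c9 probe set was thus detected with this number of arrays. It had an r of only 0.14 and 0.27 with the other c9 probe sets. These deviations therefore cannot decide whether the c9 transcript varied with the other genes. c6.2 and the actin difference had an r of 0.66 (permutation p = 0.0258, adjusted over 11 relations to 0.142) and a rho of 0.76 (permutation p = 0.00663, adjusted 0.0729), and r was 0.48 without the 2 arrays farthest from the median. The mean actin difference itself was 4.51 ± 0.68 with morphine and 4.34 ± 0.59 in control (SD, n = 6 each; exact permutation test, two-sided, p = 0.647).

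A list of 52 further complement symbols, written with the paper read, had 15 genes with 1 probe set each on the array. Of these 15, 3 were lower with morphine and 0 were higher in limma, and 12 did not pass. Over all probe sets limma passed 3.72% as lower and 3.13% as higher. A log2 signal under 5 on most arrays was found for 5 of the 15. At an unadjusted p under 0.05 limma gave 4 lower and 1 higher, and SAM, a permutation method, gave 3 lower and 0 higher. The shares over all probe sets were 8.47% lower and 8.09% higher for the unadjusted p, and 5.8% lower and 5.07% higher for SAM. The median log2 fold change of the 15 was -0.08, with 9 below 0.

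c4b encodes a form of C4, the substrate of C1s and of the lectin pathway protease MASP2. It read 5.44, 5.29, 5.40, 5.48, 5.28 and 5.28 with morphine, against 5.98, 5.74, 5.87, 6.08, 5.76 and 5.94 in control. All morphine pools were below all control pools, with a gap of 0.25, wider than for c9 or serping1. The log2 fold change was -0.53 ± 0.07 (SE; limma adjusted p = 0.000127), a signal 31.0% lower.

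cfhl4 belongs to the factor H family, whose founding member in mammals restrains the alternative pathway. It read 10.56, 10.35, 10.46, 10.26, 10.63 and 10.57 with morphine, against 10.72, 10.65, 10.71, 10.81, 10.74 and 10.95 in control, and the groups were separated by only 0.02. The log2 fold change was -0.29 ± 0.07 (SE; limma adjusted p = 0.0232). vtnb encodes a vitronectin, an adhesive plasma protein that in mammals also binds the terminal complex before it enters a membrane. It read 7.91, 7.24, 7.82, 7.73, 7.95 and 7.85 with morphine, against 8.08, 7.91, 8.18, 8.15, 8.32 and 8.44 in control, with an overlap of its groups. The log2 fold change was -0.43 ± 0.11 (SE; limma adjusted p = 0.038).

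The 6 with the highest mean signal among the 12 that did not pass act at several steps. cpn1, a subunit of the carboxypeptidase that inactivates C3a and C5a, had a log2 fold change of 0.10 (limma adjusted p = 0.621). cfd, factor D, which cuts factor B, had -0.15 (limma adjusted p = 0.376). cfp, properdin, which stabilises the alternative convertase, had 0.14 (limma adjusted p = 0.246). The log2 fold changes of these 3 were of both signs. masp2, the lectin pathway protease, had -0.01 (limma adjusted p = 0.977). c3a.6, another C3 gene, had -0.14 (limma adjusted p = 0.402). cd59a, related to the membrane protein that keeps C9 from polymerising, had -0.12 (limma adjusted p = 0.558).

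**Figure D4:**
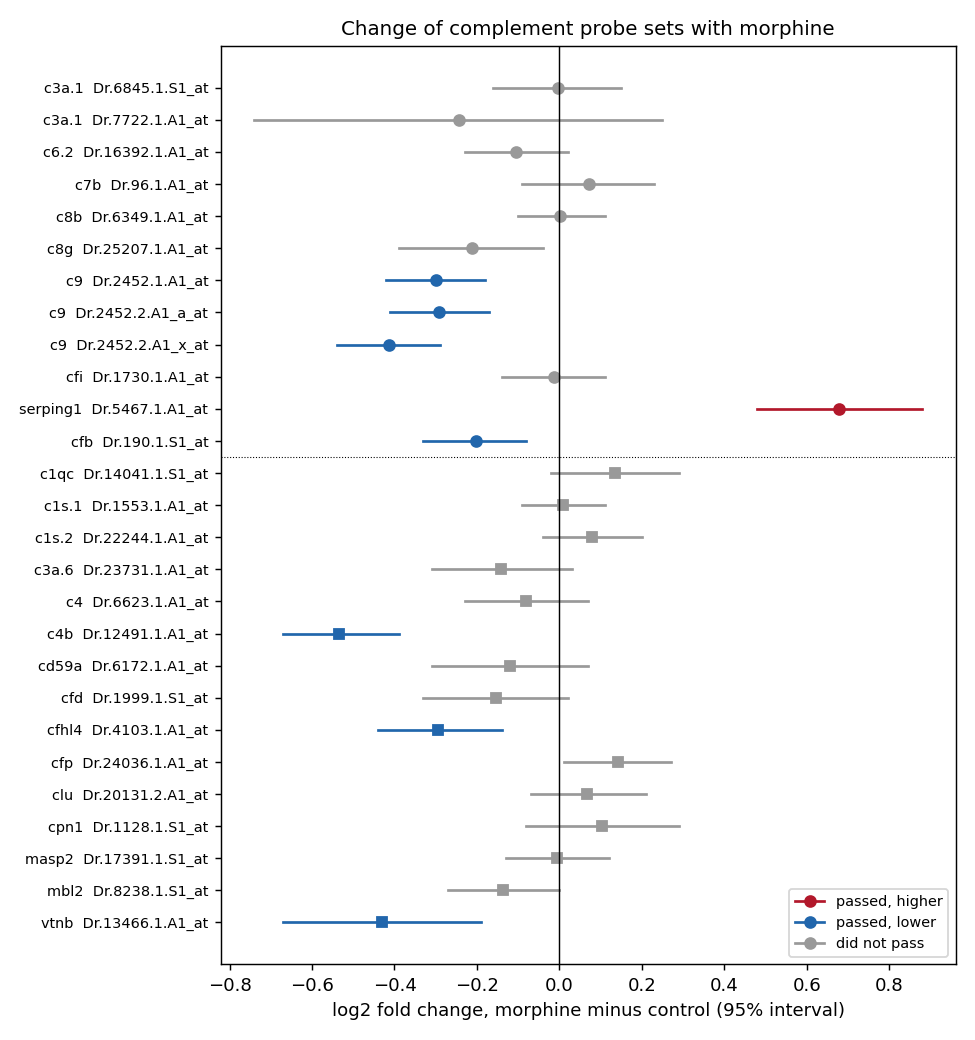
Log2 fold change (morphine minus control) of each complement probe set with its 95% interval, the 11 probe sets and the one listed as cfb above the dotted line and the 15 other complement genes below it, coloured by whether they passed at an adjusted p under 0.10. serping1 at 0.68 is the only one that passed as higher, and c9 (-0.30, -0.29 and -0.41), cfb (-0.20), c4b (-0.53), cfhl4 (-0.29) and vtnb (-0.43) passed as lower.

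Most complement proteins come from the liver, so markers of it were read beside them. The shares that passed over all probe sets were 3.72% lower and 3.13% higher. Of 27 probe sets of other secreted or metabolic liver genes, 7 were lower, 1 was higher and 19 did not pass, with a median log2 fold change of -0.05. The lower ones with the smallest adjusted p were fah (-1.17), an enzyme of tyrosine breakdown, rbp4 (-0.43), which carries retinol, apom (-0.37), an apolipoprotein, and cp (-0.41), ceruloplasmin. The mean log2 signal over this list was 8.70 to 8.79 in the morphine pools and 8.80 to 8.88 in the control pools. The narrow separation of these ranges rests on fah, which had the largest change of the list and was not left out of the mean. It read 5.09 to 5.40 with morphine and 6.25 to 6.62 in control, and without it the ranges overlap. The separation is thus not read as a shift of the whole list. The liver marker fabp10a was dim, at 3.98 with morphine and 3.99 in control, while tfa, transferrin, was lower by a log2 fold change of -0.20 (limma adjusted p = 0.0454). The 1 higher was fetub (0.52, limma adjusted p = 0.0411), a fetuin secreted by the liver. Of 17 probe sets of liver transcription factors, 7 had a log2 signal under 5 on most arrays. In limma 0 of the 17 were lower, with 0 at an unadjusted p under 0.05 and 0 by SAM. Of these 17, 1 was higher in limma (creb3l3a, 0.24, limma adjusted p = 0.0528), with 4 higher at an unadjusted p under 0.05 and 3 by SAM. The early liver factor hhex did not pass (0.05, limma adjusted p = 0.663). Nor did prox1a (0.25, limma adjusted p = 0.117), foxa3 (0.21, limma adjusted p = 0.161) or cebpa (0.0, limma adjusted p = 0.999). The hnf4a probe sets had -0.15 and 0.01 (limma adjusted p = 0.341 and 0.947). Both hnf4a probe sets and prox1a were dim. Of 17 coagulation probe sets, 5 were lower and 2 were higher. The mean log2 signal over the coagulation list overlapped, at 6.53 to 6.61 in the morphine pools and 6.59 to 6.72 in the control pools. The lower ones included the fibrinogen chains fgg (-0.49), fgb (-0.31) and fga (-0.31) and factor VII, f7 (-0.40). The higher ones were tfpia (0.43), related to the inhibitor of the tissue factor pathway, and plg (0.33), plasminogen, each by 1 of its 2 probe sets. The other tfpia probe set had -0.01 and the other plg probe set 0.17, and neither passed (limma adjusted p = 0.964 and 0.208). For plg, the paper's quantitative PCR found no significant change with morphine, so its higher array signal was not borne out there. The part of the liver list in the changes of c9, c4b, cfhl4 and vtnb was not tested.

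Blood cells can make complement proteins too. Of 20 myeloid probe sets, 12 had a log2 signal under 5 on most arrays, 1 was lower (nccrp1, -0.23, limma adjusted p = 0.0716) and 0 were higher in limma, with 3 lower and 1 higher both at an unadjusted p under 0.05 and by SAM. The mean log2 signal of this list was 4.97 to 5.10 with morphine and 5.00 to 5.10 in control. The myeloid markers lyz, lcp1, csf1ra, marco, spi1b, coro1a and mpx of this list did not pass. Their log2 fold changes were -0.05 (lyz), 0.10 (lcp1), -0.01 (csf1ra), -0.11 (marco), 0.05 and 0.06 (spi1b), -0.43 and -0.21 (coro1a) and -0.03 to 0.10 (mpx). C1 inhibitor and C9 respond to interferon or to the acute phase in mammals. Of 23 probe sets of interferon and acute phase genes, 1 was higher (psmb8a, 0.17, limma adjusted p = 0.0754) and 1 was lower (b2m, -0.33, limma adjusted p = 0.0142). Of these 23, 12 had a log2 signal under 5 on most arrays, psmb8a and b2m among them. Of 10 probe sets of other serpins, relatives of serping1, 5 had a log2 signal under 5 on most arrays. In limma 0 of these serpins passed, with 1 lower and 0 higher at an unadjusted p under 0.05 and 0 by SAM. Their median log2 fold change was -0.04. In limma 6.85% of all probe sets passed in either direction, and the counts of the myeloid, interferon and serpin lists lie near that share. Many probe sets of these lists were dim, where a change of transcript may not be seen.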

How the data were processed

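Embryos of 6 morphine and 6 control pools were measured on 1 array each. The authors summarised probe intensities with RMA (background correction, quantile normalization, 1 value per probe set) in R and Bioconductor, versions not given in the sources used here, and the deposited values are log2 signals. RMA equalises the arrays' distributions, so a shift of all transcripts would not be seen. Array medians were 5.81 to 5.86. From 15617 rows, 115 control probe sets were left out. The array number limits the precision, and p-values measure only the spread between pools.

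limma 3.58.1 in R 4.3.3 was fitted on all 12 arrays without covariates, two-sided. Permutation tests used 100000 resamples, or all splits where called exact (Python 3.11.15, scipy 1.17.1), and figures were drawn with matplotlib 3.10.9. The steps were tested on simulated data. Dim means a log2 signal under 5 on most arrays. The RNA quality measure uses the array's acta1 control probe sets, not beta-actin as first planned.

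The genes, lists and rules were chosen with earlier results of these data known. All probe sets of the proposed genes are named, with the other complement genes that passed and the 6 brightest others, and up to 4 passing probe sets of each marker list by smallest adjusted p. fabp10a, tfa, fetub, hhex, prox1a, foxa3, cebpa, hnf4a, the myeloid markers and further coagulation genes were added to these. Gene order came from the RefSeq assembly GRCz12tu. Columns of the study's own comparisons were not used.

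Same-numbered morphine and control arrays deviated together (r = 0.225 to 0.471 over all probe sets, 6 of 6 above 0.1). Only 1 of 6 morphine arrays and 2 of 6 control arrays had their highest r with the array of their own number. Whether the numbers pair the pools is thus not settled, and no source says what they mark. The fit without pairs was kept and the replicate block was an alternative. The others were SAM (100 permutations), variance trend with robust estimation, array weights, quantile normalization again, median centring, a filter on dim probe sets, no shared-sequence suffixes, a threshold of 0.05 for the adjusted p, the control probe sets kept in, the actin difference as a covariate and each array left out. Leaving out the 3 or the 4 arrays of lowest actin difference was chosen after seeing the data.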

Additional observations from a re-analysis of the deposited data

Results flagged for a closer look

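c7b had a pool far from the others in each group. Morphine pool 4 read 6.19 on the log2 scale, with the nearest other morphine pool at 5.93, a gap of 0.75 of the group's range. Control pool 2 read 6.13, with the nearest other control pool at 5.88, a gap of 0.66 of the range. Both exceeded Dixon's 95% critical value for 6 samples. Chance marks about 1 in 20 groups, and 24 groups were tested.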

How the results depend on the processing

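The c9 probe sets stayed lower and serping1 higher, past the threshold, under the alternatives in which each was tested, except that c9 Dr.2452.2.A1_a_at was lost without the 4 arrays of lowest actin difference (limma adjusted p = 0.103). The alternatives reuse the arrays on which these genes were selected, so they describe only the dependence on processing and are no further support for the changes. Log2 fold changes were -0.34 to -0.27, -0.31 to -0.23 and -0.46 to -0.38 for c9 and 0.63 to 0.83 for serping1, which met the filter on dim probe sets only with its morphine pools and so is not tested by it. Leaving out probe sets with shared-sequence suffixes removed 2 of the c9 probe sets from testing, so that 1 of the genes' probe sets was called lower. c4b, cfhl4 and vtnb were lower under every alternative (highest limma adjusted p = 0.0917, vtnb without control pool 6). Leaving out 1 array each time, 3 to 3 of the 11 were called lower and 1 to 1 higher, 3 to 3 of the other complement genes were lower and 0 to 0 higher, and 779 to 1152 of all probe sets were called, against 1062 with all arrays. SAM called 1685, and the cause was not tested. Without the 4 arrays of lowest actin difference (pools 1 and 2 of both groups) 643 were called with fewer samples. c3a.1 Dr.7722.1.A1_at was added there (limma adjusted p = 0.0954), with its own lowest readings left out. Without the lowest 3, an uneven choice that leaves low morphine pool 2 in, this c3a.1 probe set had -0.53 and did not pass (limma adjusted p = 0.132). With the replicate block 1547 were called, and of the 11 probe sets 4 were lower, c8g being added, and 1 was higher. The block and SAM added c8g (limma adjusted p = 0.0571, SAM q = 0.0926), which did not pass under any other alternative (limma adjusted p = 0.123 to 0.361 leaving out 1 array). The block changed no other call among the complement genes.

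The probe set listed as cfb was lost with an adjusted p under 0.05, with variance trend and robust estimation (limma adjusted p = 0.101) and in 9 of 12 fits without 1 array (limma adjusted p = 0.0177 to 0.145); it was kept without control replicate 4, morphine replicate 1 or morphine replicate 5. Signs near 0 turned for c3a.1 Dr.6845.1.S1_at (0.014 with array weights, -0.040 to 0.047 leaving out 1 array), c8b (-0.0028 with centred arrays, -0.025 to 0.024 leaving out 1 array) and cfi (0.0091 with array weights, 0.017 with quantile normalization again, 0.0077 without the 3 and 0.051 without the 4 arrays of lowest actin difference, -0.037 to 0.021 leaving out 1 array), and none of these passed under any alternative. Arrays give no counts, and signals under 5, as for 1 c3a.1 probe set, fabp10a and 4 of the 6 control pools of serping1, lie in the range where a change of transcript may not be seen.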

Other observations

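Genes whose deviations from the group means followed c9 (Dr.2452.1.A1_at) most closely over the 12 arrays were serpina1l, a serpin of the alpha-1-antitrypsin family (Pearson r = 0.95), ndufaf4 (0.93), pcolce2b (0.92), uts1 (0.90) and si:dkey-72l14.3 (0.89). For serping1 they were cnrip1a, slc25a4 and riox2 (0.93 each), cox17 (0.92) and cog8 (0.91). These are the highest values among all single-gene probe sets, given as a description. The other c9 probe sets had values of 0.14 and 0.27 with the same c9 probe set.

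Around c9 on the chromosome, 10 neighbouring genes with a probe set (5 on each side) had 13 probe sets, of which 0 passed in limma, with 1 lower and 0 higher at an unadjusted p under 0.05 and 0 by SAM. Their log2 fold changes were -0.14 to 0.06. The 10 neighbours of serping1 had 14 probe sets, of which 2 passed, both lower: sap30bp (-0.29, limma adjusted p = 0.0289) and si:ch211-229n2.7 (-0.64, limma adjusted p = 6.3e-06). No neighbour of serping1 on the array was higher in limma or by SAM, with 1 higher at an unadjusted p under 0.05. Over all probe sets 6.85% passed in limma in either direction.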
